A study of Mus musculus with 12 samples.

Results

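A group of 9 genes that carry pyrimidine nucleosides into cells and take them apart were followed by RNA-seq in mouse liver at 3 ages. The genes were Slc28a1, Slc29a1, Upp1, Upp2, Dpyd, Dpys, Upb1, Uck1 and Uckl1, that is 9 of the 53465 genes of the count table, found there by their Ensembl identifiers. They were chosen by pathway, with the size-normalised counts of all 12 livers in view. Every level, fold change and call of these genes is therefore given as a description and without a test. The labels give C57BL/6N mice aged 3 months (young), 12 months (middle-aged) or 18 months (aged), with 4 livers per age and each sample from 1 animal. The study's methods describe its mice as male and fed a standard diet without restriction, and no group was treated or carried an engineered allele. The labels describe RNA extraction for young and old livers only, and the series text gives 3 replicates per age where the table holds 4. The study's text draws its liver RNA-seq of 3 ages from a public ageing atlas, Tabula Muris Senis, and describes RNA-seq of its own cohort for young and aged mice. The source, strain and preparation of the 12 livers are therefore uncertain, and differences of preparation between ages cannot be told apart from age.

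Uridine and cytidine enter cells through concentrative transporters, which are driven by sodium, and through equilibrative transporters, which work along the gradient. Inside the cell uridine has competing fates. Uridine-cytidine kinases phosphorylate it and keep it for RNA and sugar nucleotides, whereas uridine phosphorylase splits it into uracil and ribose 1-phosphate. Uracil is then reduced by dihydropyrimidine dehydrogenase, opened by dihydropyrimidinase and cleaved by beta-ureidopropionase to beta-alanine, ammonia and carbon dioxide. The liver is known for clearing uridine from the blood and for carrying out this breakdown, and fluoropyrimidine drugs are degraded along the same path.

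Libraries held between 8124312 counts (young replicate 3) and 10527159 counts (middle-aged replicate 2) in genes. Young replicate 2 stood apart with 19.16% of its gene counts in mitochondrial genes, against 5.481% to 10.68% in the other 11, and with the highest spike-in share (10.63% of counts, against 1.589% to 6.234%). The spike-in share also differed by age. It was 3.50% to 10.63% in young, 1.59% to 2.73% in middle-aged and 1.87% to 3.51% in aged livers, so young and middle-aged livers did not overlap. The part of this difference in the results below was not tested. Young replicate 3 had counts in 22284 genes and middle-aged replicate 1 in 19982, against 16361 to 17563 in the other 10. By the pattern of 31 synthetic spike-in RNAs the libraries formed 2 sets, set A with the replicates numbered 1 and 2 and set B with those numbered 3 and 4, and within-set values are given below. Hepatocyte markers were high in every liver, with 485654 to 774027 normalised counts of Alb, and by DESeq2 0 of the 5 hepatocyte markers passed the test between any 2 ages (2, 1 and 0 at an unadjusted p under 0.05 at 18 against 3 months, 12 against 3 months and 18 against 12 months, and 0 by edgeR). Of the 2 erythroid markers, Hbb-bs was lower in aged than in young livers. The erythroid sum spanned 14889 to 57430 normalised counts in young, 8111 to 33696 in middle-aged and 5879 to 13958 in aged livers. The remaining markers that passed the test were Sox9 (1 of 4 biliary markers, higher in aged than in young and in middle-aged livers) and Marco (1 of 6 macrophage markers, higher in aged than in young livers). By edgeR 0 of the erythroid, biliary and macrophage markers passed in any comparison. The biliary sum was 141 to 262, 85.4 to 372 and 116 to 356 normalised counts in young, middle-aged and aged livers, and the macrophage sum was 2275 to 3943, 1969.8 to 2539 and 2364 to 4026. Of the defining markers, Epcam and Nkg7 were at 0 in at least 1 liver. The part of these cell types in the results below was not tested, and in bulk tissue fewer cells of a type cannot be told apart from less RNA per cell.

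The start sites of the genes that differed most between ages are shown first, because Upp2 has more than 1 annotated start of unlike composition and Slc28a1 has a single one. RefSeq promoter windows of GRCm38.p6 (250 bases before to 50 bases after a start) matched 8 of the 9 genes, with 20 windows in all. Dpys had no entry. The windows of the outer start of Upp2 (chr2:58567084-58567383, plus strand), of its inner start (chr2:58754934-58755233, plus strand) and of Slc28a1 (chr7:81114549-81114848, plus strand) are printed 5′ to 3′, with capitals marking the letters TATAAA.
Upp2 outer start: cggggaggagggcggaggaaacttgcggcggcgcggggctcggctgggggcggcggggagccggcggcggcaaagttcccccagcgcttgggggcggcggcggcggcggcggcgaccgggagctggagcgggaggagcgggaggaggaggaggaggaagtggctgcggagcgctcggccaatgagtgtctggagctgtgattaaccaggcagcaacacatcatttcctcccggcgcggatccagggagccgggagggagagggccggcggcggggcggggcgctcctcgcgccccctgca
Upp2 inner start: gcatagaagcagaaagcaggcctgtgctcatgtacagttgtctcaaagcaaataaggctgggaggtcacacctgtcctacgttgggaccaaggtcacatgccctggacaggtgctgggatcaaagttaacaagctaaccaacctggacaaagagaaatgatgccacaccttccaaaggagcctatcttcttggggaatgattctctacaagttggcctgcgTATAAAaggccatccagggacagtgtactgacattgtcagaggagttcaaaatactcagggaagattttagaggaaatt
Slc28a1 start: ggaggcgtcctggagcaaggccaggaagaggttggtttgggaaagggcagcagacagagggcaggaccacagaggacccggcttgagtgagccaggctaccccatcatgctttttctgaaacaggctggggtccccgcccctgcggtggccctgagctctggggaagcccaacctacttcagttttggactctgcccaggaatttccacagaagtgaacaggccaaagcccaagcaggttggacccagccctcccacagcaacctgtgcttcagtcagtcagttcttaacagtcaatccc

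The outer Upp2 window was 75.3% G or C with 37 CpG dinucleotides and held no TATAAA. The inner Upp2 window was 47% G or C with 2 CpG dinucleotides and held TATAAA from base 222, in front of the annotated start. The Slc28a1 window was 58.7% G or C with 4 CpG dinucleotides and held no TATAAA. Over all 32851 windows of the genome the medians were 52.7% and 7 CpG dinucleotides. TATAAA, searched on both strands after these sequences had been seen, occurred in 1 of the 20 windows of these genes and in 13.6% of all windows. The D-box letters bound by Dbp and its relatives (TTATGTAA or TTACGTAA, both strands) occurred in 0 of the 20 windows and in 1.06% of all windows. The E-box letters CACGTG (both strands) occurred in 1 of the 20 windows, which belonged to Slc29a1, and in 7.15% of all windows. Counts per gene cannot say which Upp2 start was used, since the annotation lists 10 transcripts for the gene.

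Of the transporters, Slc28a1 was higher at both later ages and Slc29a1 was not called in any comparison. Slc28a1 (ENSMUSG00000025726, chr7:81114799-81170416, plus strand) encodes the sodium-driven concentrative transporter that prefers pyrimidine nucleosides. In young replicates 1 to 4 its normalised count (the count divided by the library's size factor) was 11.7, 3.82, 2.37 and 12.7. In middle-aged replicates 1 to 4 the Slc28a1 count was 78.4, 67.3, 45.9 and 66.1, and in aged replicates 1 to 4 it was 48.2, 44.3, 36.7 and 63.5. Every young liver lay below every middle-aged and aged liver, whereas the middle-aged and aged ranges overlapped. The young values rested on 2 to 13 counts per library, of which young replicates 2 and 3 had 3 and 2. The log2 fold change was 3.02 ± 0.39 (SE, n = 4 livers per age) for middle-aged against young, a level 8.13-fold higher. It was 2.60 ± 0.40 for aged against young, a level 6.08-fold higher, and -0.42 ± 0.30 for aged against middle-aged. Within set A the difference of aged from young was 2.54 on the log2 scale and within set B it was 2.69. For middle-aged against young the within-set values were 3.20 and 2.84, the second without an adjusted p because independent filtering removed the gene. By size, Slc28a1 was in place 3 of the 398 genes called higher in middle-aged than in young livers, and in place 26 of the 253 called higher in aged than in young livers. Ndufs6b, a processed pseudogene on the opposite strand inside Slc28a1, shares 0 exon bases with it and had means of 5.0, 23.3 and 14.0 normalised counts in young, middle-aged and aged livers. The strand setting of the counting was not given in the sources used here, so whether reads of the pair were separated by strand is unknown.

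Slc29a1 (ENSMUSG00000023942, chr17:45585200-45599606, minus strand) encodes the equilibrative transporter that carries nucleosides in either direction. Its normalised count was 1135, 1319, 1077 and 1176 in young replicates 1 to 4, and 1282, 1419, 1085 and 1186 in middle-aged ones. In aged replicates 1 to 4 the Slc29a1 count was 1258, 1173, 1161 and 1405. The ranges of the 3 ages overlapped throughout, and the log2 fold changes were 0.08 ± 0.11 at 12 against 3 months, 0.09 ± 0.11 at 18 against 3 months and 0.01 ± 0.11 at 18 against 12 months (SE, n = 4 per age). Per kilobase of annotated exon, Slc28a1 amounted to 0.889% ± 0.629 of Slc29a1 at 3 months, 7.02% ± 1.14 at 12 months and 5.19% ± 0.752 at 18 months (SD, n = 4). The highest young share was 1.47% and the lowest share at the later ages was 4.30%, so the equilibrative transcript exceeded the concentrative one in every liver.

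**Figure D1:**
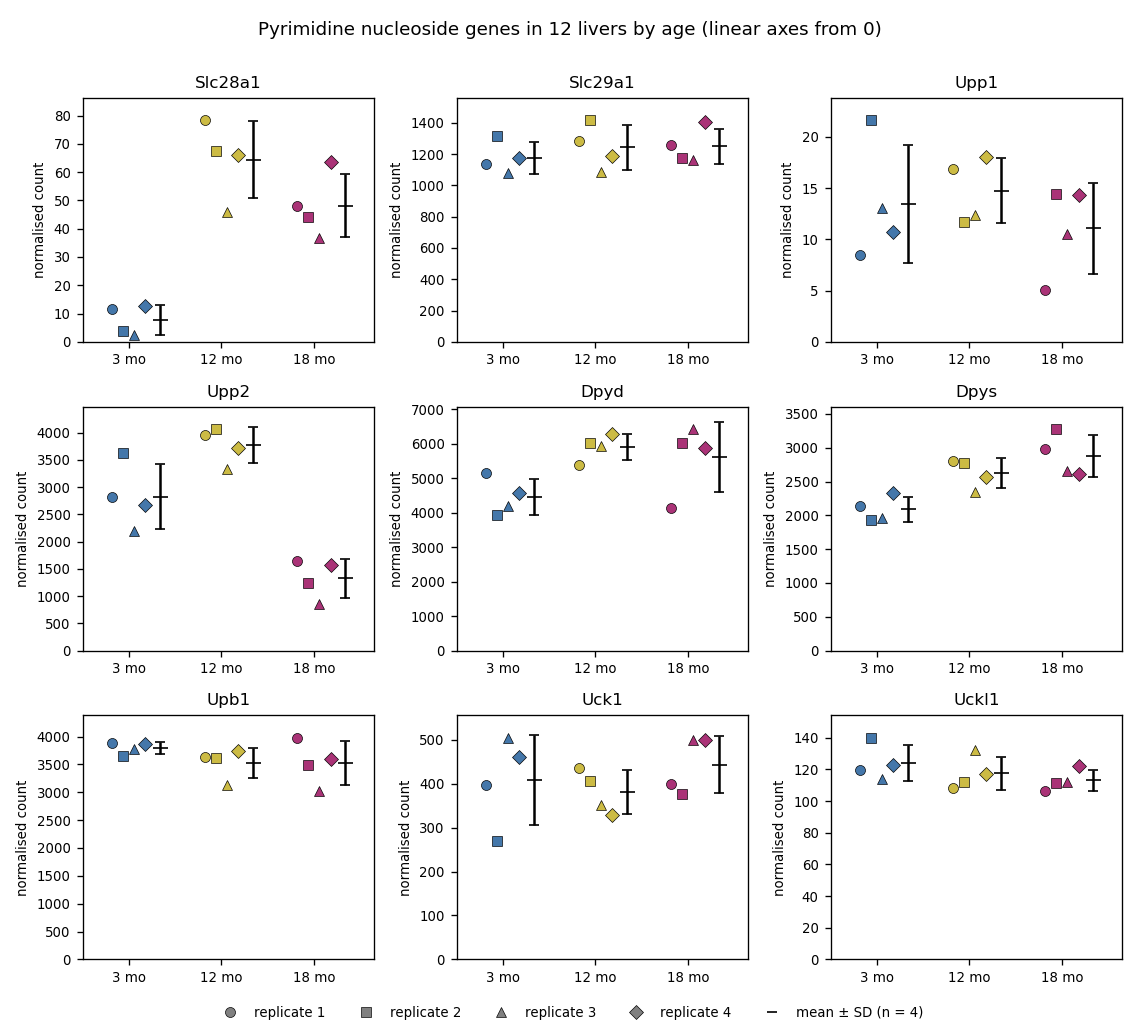
Normalised counts of the 9 genes (y axes, linear, from 0) in livers of 3, 12 and 18 months (x axes); symbols are the 4 livers of an age by replicate number and bars are mean ± SD. Slc28a1 was at 2.37 to 12.7 in young livers and at 36.7 or more at both later ages, and Upp2 was at 856 to 1644 in aged livers and at 2189.7 or more at both earlier ages.

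Of the phosphorylases, the liver-rich Upp2 was lowest in aged livers, and Upp1 was low at every age. Upp2 (ENSMUSG00000026839, chr2:58567298-58792971, plus strand) encodes uridine phosphorylase 2, which cleaves uridine to uracil and ribose 1-phosphate. Its normalised count was 2816, 3629.7, 2189.7 and 2668 in young replicates 1 to 4, and 3959.6, 4072, 3334 and 3723 in middle-aged ones. In aged replicates 1 to 4 the Upp2 count was 1644, 1234, 856 and 1563. All 4 aged livers lay below all 8 younger ones, and young replicate 2 reached into the middle-aged range. The log2 fold change was -1.51 ± 0.19 (SE, n = 4 per age) for aged against middle-aged, that is 2.85-fold lower in aged livers. It was -1.09 ± 0.19 for aged against young, that is 2.13-fold lower, and 0.42 ± 0.19 for middle-aged against young, which was not called. Aged against middle-aged, the difference was -1.48 on the log2 scale within set A and -1.54 within set B. Aged against young it was -1.16 within set A and -1.01 within set B, the latter not called with 2 livers against 2. By size, Upp2 was in place 7 of the 62 genes called lower in aged than in middle-aged livers and in place 70 of the 231 called lower in aged than in young livers.

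Upp1 (ENSMUSG00000020407, chr11:9118103-9136170, plus strand) encodes the more widely expressed uridine phosphorylase 1. Upp1 normalised counts were 8.49, 21.7, 13.0 and 10.7 in young replicates 1 to 4, and 16.9, 11.7, 12.4 and 18.0 in middle-aged ones. In aged replicates 1 to 4 the Upp1 count was 5.02, 14.4, 10.5 and 14.3. The 3 ages overlapped, and the log2 fold changes had standard errors of 0.45 to 0.46, so differences of that size were not detectable at this depth. Per kilobase of exon, Upp1 amounted to 1.19% to 2.36% of Upp2 in young livers, 1.13% to 1.92% in middle-aged and 1.21% to 4.85% in aged livers. Upp2 thus exceeded Upp1 in every liver, the aged ones included.

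Of the enzymes of base breakdown, Dpys was called higher at both later ages, Dpyd in middle-aged livers only, and Upb1 in neither. Dpyd (ENSMUSG00000033308, chr3:118562129-119432924, plus strand) encodes dihydropyrimidine dehydrogenase, the reductase that commits uracil and thymine to breakdown. Its normalised count was 5142, 3933, 4202 and 4578 in young replicates 1 to 4, and 5372.5, 6031, 5939 and 6275 in middle-aged ones. In aged replicates 1 to 4 the Dpyd count was 4137, 6024, 6434 and 5877. The middle-aged livers all exceeded the young ones, whereas aged replicate 1 lay inside the young range and the other 3 aged livers above it. For Dpyd the log2 fold change was 0.40 ± 0.13 (SE, n = 4 per age) at 12 against 3 months, 0.33 ± 0.13 at 18 against 3 months and -0.07 ± 0.13 at 18 against 12 months. The middle-aged difference was called and the aged one was not. Without aged replicate 1 the latter was 0.45 and called, and within sets A and B it was 0.17 and 0.48, with the set B value called.

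Dpys (ENSMUSG00000022304, chr15:39768487-39857470, minus strand) encodes dihydropyrimidinase, which opens the reduced ring. Normalised counts of Dpys were 2145, 1933, 1956 and 2331 in young replicates 1 to 4, and 2808, 2781, 2339 and 2573 in middle-aged ones. In aged replicates 1 to 4 the Dpys count was 2984, 3279.8, 2653 and 2605. No young liver reached the middle-aged or aged range, though the highest young value (2331) and the lowest middle-aged value (2339) were close. Its log2 fold change was 0.46 ± 0.10 (SE, n = 4 per age) at 18 against 3 months, 0.33 ± 0.10 at 12 against 3 months and 0.13 ± 0.10 at 18 against 12 months. Aged against young, the within-set values on the log2 scale were 0.62 in set A and 0.29 in set B, the latter smaller and not called. Upb1 (ENSMUSG00000033427, chr10:75401115-75441679, plus strand) encodes beta-ureidopropionase, which releases beta-alanine. The Upb1 count was 3882, 3651, 3769 and 3864 in young replicates 1 to 4, 3626, 3612, 3128 and 3733 in middle-aged ones, and 3981, 3484, 3025 and 3601 in aged ones. Its log2 fold changes were -0.11 ± 0.09 for both later ages against young and 0.00 ± 0.09 for aged against middle-aged (SE, n = 4 per age), and the 3 ages overlapped.

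Set against Upb1 in the same liver, which removes the library size, Dpys per kilobase of exon averaged 1.0 ± 0.0681 at 3 months, 1.35 ± 0.0712 at 12 months and 1.49 ± 0.188 at 18 months (SD, n = 4). The young ratios of Dpys to Upb1 ended at 1.09 and those of both later ages began at 1.25. The ratio of Dpyd to Upb1 was 0.899 ± 0.0834 at 3 months, 1.29 ± 0.130 at 12 months and 1.25 ± 0.343 at 18 months (SD, n = 4). The aged ratios of Dpyd to Upb1 ran from 0.794 (replicate 1) to 1.63 (replicate 3) and covered the young ones.

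The kinases that retain uridine were not called in any comparison. Uck1 (ENSMUSG00000002550, chr2:32255002-32260159, minus strand) encodes uridine-cytidine kinase 1, which makes UMP and CMP from the nucleosides. For Uck1 the normalised counts were 396, 269, 505 and 461 in young replicates 1 to 4, 436, 407, 351 and 329 in middle-aged ones, and 398, 376, 499 and 499 in aged ones. The young livers alone spanned the values of all others, and the log2 fold changes were between -0.10 ± 0.18 at 12 against 3 months and 0.22 ± 0.18 at 18 against 12 months (SE, n = 4 per age). The middle-aged difference from young was 0.34 within set A and -0.51 within set B, opposite in sign, where young replicate 2 was the lowest and young replicate 3 the highest of the young livers. Uckl1 (ENSMUSG00000089917, chr2:181569149-181584892, minus strand) encodes a protein related to these kinases. Its normalised count was 119.9, 140.1, 114 and 123 in young replicates 1 to 4, 108, 112, 132 and 117 in middle-aged ones, and 106, 112, 112 and 122 in aged ones, with overlap of all ages. The log2 fold changes of Uckl1 were between -0.13 ± 0.14 at 18 against 3 months and -0.06 ± 0.14 at 18 against 12 months (SE, n = 4 per age). An antisense gene, Uckl1os, covers 459 exon bases (9.92%) of Uckl1 and had a mean of 1.56 normalised counts. Zfp512b, a protein-coding gene on the same strand, shares 67 exon bases (1.45%) with Uckl1 and had a mean of 159 normalised counts.

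Transcripts for splitting and for keeping uridine were compared by the ratio of Upp2 to Uck1 plus Uckl1, each per kilobase of exon. The use of uridine itself was not measured, and the size of the ratio depends on the length taken for Upp2. Uck2, a further uridine-cytidine kinase, was not in the ratio. Its group means were 21.1 to 24.5 normalised counts per kilobase, beside 24.4 to 26.8 for Uckl1. The ratio was 2.14, 3.66, 1.36 and 1.77 in young replicates 1 to 4 and 2.81, 3.05, 2.75 and 3.31 in middle-aged ones. In aged replicates 1 to 4 the ratio was 1.26, 0.989, 0.536 and 0.969. The aged livers were the lowest, at 0.939 ± 0.300 (SD, n = 4) against 2.23 ± 1.0 in young and 2.98 ± 0.258 in middle-aged livers, and the highest aged ratio (1.26) lay just under the lowest young one (1.36).

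**Figure D2:**
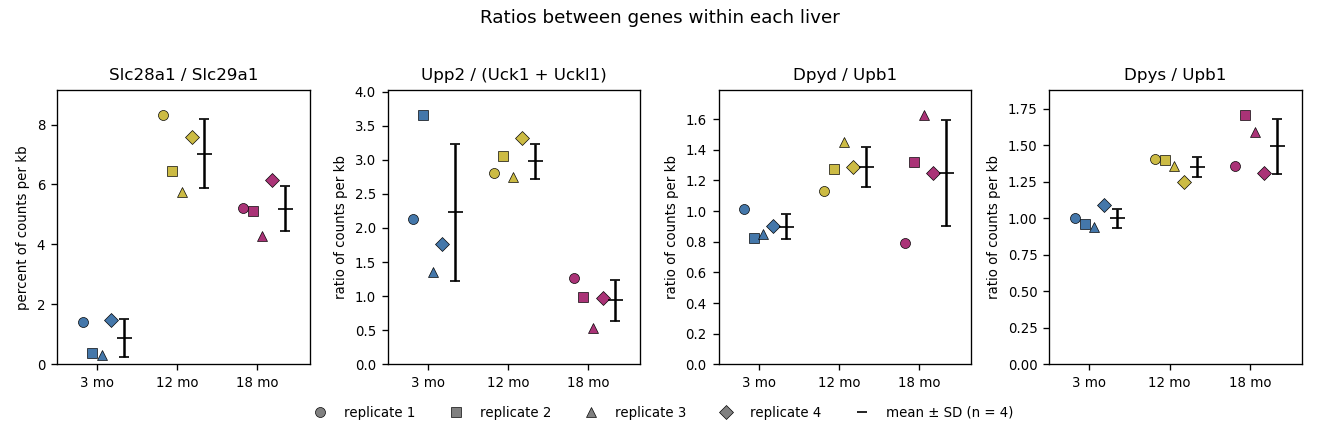
Ratios of counts per kilobase of exon between genes within each liver (y axes, linear, from 0; the first panel in percent) at 3, 12 and 18 months; symbols are livers by replicate number and bars are mean ± SD (n = 4). Slc28a1 relative to Slc29a1 was at most 1.47% in young livers and at least 4.30% later, and Upp2 relative to Uck1 plus Uckl1 was at most 1.26 in aged livers.

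Compared as counts per kilobase of annotated exon, averaged over the 12 livers, the breakdown enzymes were the most abundant of the 9 transcripts. The order of these levels was Dpys (677), Dpyd (599.8), Upb1 (532), Upp2 (340.3), Slc29a1 (305), Uck1 (149), Uckl1 (25.6), Slc28a1 (13.6) and Upp1 (6.68). Of neighbours in this order, Slc29a1 and Uck1 and then Uck1 and Uckl1 did not overlap over the 12 livers, and all other neighbours did. The order of the means also turned between ages. In aged livers Upp2 (171) stood below Slc29a1 (312), and in young livers Slc28a1 (2.59) stood below Upp1 (6.87) and Dpyd (502) below Upb1 (558). With the length of the longest annotated transcript in place of the exon union, Dpyd came first (1186), then Dpys (1027), Upb1 (970.2) and Upp2 (927). The order of the first 2 and the distance of Upp2 from the breakdown enzymes thus depended on the gene length used. For Upp2 that length was 7761 bases by exon union and 2848 by longest transcript. With the longest transcript the order was computed over the 12 livers only and not by age.

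Counted over the 9 genes, the calls by the DESeq2 fit (adjusted p under 0.05) were few and are read against the share of all genes called. Between middle-aged and young livers 3 of the 8 genes tested were called, all higher (Slc28a1, Dpyd, Dpys), where 6.41% of all genes tested were called. Between aged and young livers 3 of the 9 tested were called, Slc28a1 and Dpys higher and Upp2 lower, where 3.58% of all genes were called. Between aged and middle-aged livers 1 of the 8 tested was called, Upp2, where 1.14% of all genes were called. The gene without an adjusted p in the 2 comparisons with 8 was Upp1. By the edgeR quasi-likelihood test the counts were 1 (Slc28a1), 3 and 1 of 9 in the same order, where 2.32%, 1.42% and 0.108% of all genes were called. The ages did not overlap for 3, 3 and 1 of the 9 genes in that order, against 16.0%, 7.53% and 6.55% of all genes. Since the 9 genes were chosen on these counts, nothing is read from these shares, and the comparisons with young share the young livers. The count for middle-aged against young rested on single livers. Without young replicate 2 or 3 Slc28a1 alone was called, without middle-aged replicate 1 Dpyd alone, and without middle-aged replicate 2 or 4 none. Slc28a1 had no adjusted p without middle-aged replicate 1, 2 or 4, and its log2 fold change was 2.73 to 3.39 when 1 liver was left out. The median log2 fold change of the 9 genes was 0.14 at 12 against 3 months, 0.09 at 18 against 3 months and -0.06 at 18 against 12 months, beside medians of 0.01, 0.00 and 0.01 over all genes tested.

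**Figure D3:**
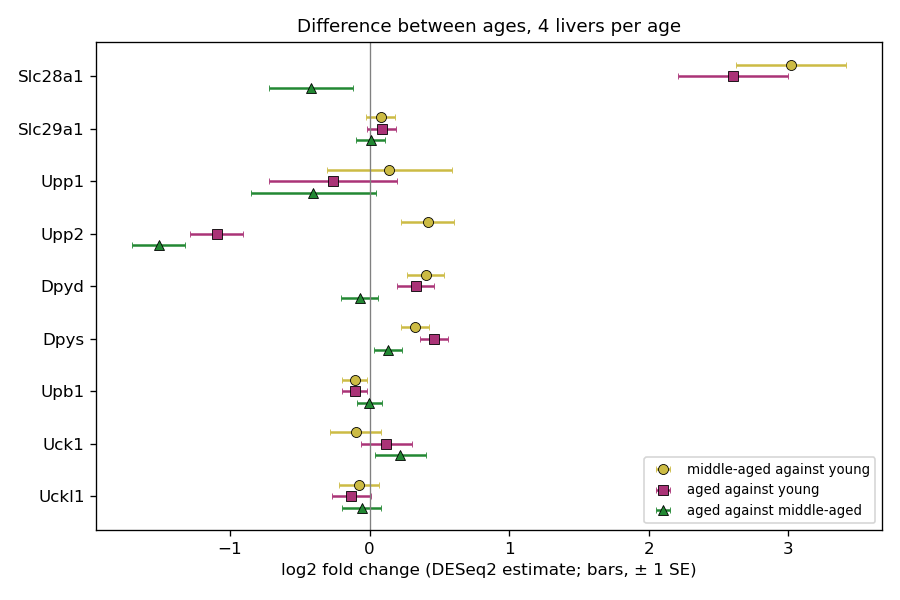
Log2 fold changes of the 9 genes (x axis; DESeq2 estimates, bars ± 1 SE, n = 4 livers per age) for the 3 comparisons of ages, 1 gene per row. Slc28a1 lay at 3.02 and 2.60 against young livers, Upp2 at -1.09 and -1.51 in aged livers, and the estimates of Slc29a1, Upb1 and Uckl1 within 0.14 of 0.

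The rest of pyrimidine metabolism was described by 39 further genes of the textbook pathway, and few of them passed the test. For aged against young, 3 of the 34 genes tested passed (DESeq2 adjusted p under 0.05), 1 higher and 2 lower, with a median log2 fold change of -0.09 over the list. For middle-aged against young 2 of 31 passed, both lower, with a median of -0.13, and for aged against middle-aged 1 of 30 passed, higher, with a median of -0.02. These shares stand beside the 3.58%, 6.41% and 1.14% of all genes called. By the edgeR quasi-likelihood test the counts were 0, 1 (Nme1) and 0, and at an unadjusted DESeq2 p under 0.05 they were 9, 6 and 2.

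Tymp encodes thymidine phosphorylase, which splits thymidine and deoxyuridine as the uridine phosphorylases split uridine, and it rose in aged livers. Its normalised count was 800.4, 646, 720.4 and 658 in young replicates 1 to 4, 704, 734, 644 and 603 in middle-aged ones, and 838, 935, 897 and 931 in aged ones. Every aged liver lay above every younger one, with young replicate 1 nearest to them. Per kilobase of annotated exon, Tymp exceeded Upp2 in all 4 aged livers, with 411 to 459 against 110 to 212 normalised counts. That order rested on the exon union of Upp2 (7761 bases, against 2848 in its longest transcript). Without division by length, Upp2 was above Tymp in aged replicates 1, 2 and 4, at 1644, 1234 and 1563 normalised counts. In aged replicate 3 Upp2 was below Tymp, at 856. The log2 fold change was 0.42 ± 0.09 (SE, n = 4 per age) for aged against middle-aged, with a DESeq2 adjusted p of 0.0028, and 0.35 ± 0.10 for aged against young, with a DESeq2 adjusted p of 0.0127. Over the alternatives the DESeq2 or edgeR adjusted p ran from 0.00152 to 1 for aged against middle-aged and from 0.00244 to 1 for aged against young. The first call was lost without middle-aged replicate 4 (adjusted p = 0.0657 by DESeq2), and the second was kept in only 2 of the 8 fits that each left out 1 liver, those without young replicate 1 and without aged replicate 1. Within sets A and B the aged difference from middle-aged was 0.30 and 0.56, and from young 0.30 and 0.41, each higher in aged livers.

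Nme1 and Nme6 encode members of the nucleoside diphosphate kinase family, which exchanges the terminal phosphate between nucleotides, and both fell after the young age. The Nme1 count was 296, 453, 340.1 and 312 in young replicates 1 to 4, 240.3, 196, 216 and 174 in middle-aged ones, and 302, 189, 183 and 190.4 in aged ones. The middle-aged livers lay below all young ones, while aged replicate 1 stood with the young livers. The log2 fold change of Nme1 was -0.76 ± 0.19 for middle-aged against young (DESeq2 adjusted p = 0.00491, n = 4 per age) and -0.70 ± 0.19 for aged against young (DESeq2 adjusted p = 0.0161). The aged call for Nme1 was lost without young replicate 2 and without aged replicate 2, 3 or 4 (DESeq2 adjusted p = 0.126, 0.0826, 0.0983 and 0.0804), and over all alternatives the adjusted p ran from 1.46e-05 to 0.678 for aged and from 0.000388 to 0.231 for middle-aged against young. Nme1 lies beside the near-identical Nme2, which had group means of 1.92 to 3.17 normalised counts, so the division of reads between the pair is uncertain. The Nme6 count was 187, 201, 233 and 193 in young replicates 1 to 4, 151, 125, 102 and 129 in middle-aged ones, and 169, 146, 94.4 and 111 in aged ones, with no overlap of young and later ages. Its log2 fold change was -0.69 ± 0.19 for middle-aged against young (DESeq2 adjusted p = 0.0121, n = 4 per age) and -0.65 ± 0.19 for aged against young (DESeq2 adjusted p = 0.0272). The middle-aged call for Nme6 was lost without young replicate 3 or middle-aged replicate 3 (DESeq2 adjusted p = 0.0748 and 0.0765). The aged call was lost without young replicate 2 or 3 or aged replicate 3 or 4 (DESeq2 adjusted p = 0.0928, 0.128, 0.148 and 0.129), with ranges over all alternatives of 0.00104 to 0.707 and 0.00107 to 1. Within sets A and B the aged difference of Nme6 from young was -0.30 and -1.06, and that of Nme1 was -0.61 and -0.81. Nt5e, which encodes a surface enzyme that frees nucleosides from nucleotides outside the cell, did not pass in any comparison of 4 livers per age and is named after its values were seen. Its normalised count in aged replicates 1 to 4 was 12.0, 14.4, 135 and 93.9, against 28.1 to 61.9 in middle-aged and 36.9 to 67.5 in young livers. The aged livers of set A thus lay below all younger ones and those of set B above them, and aged against middle-aged Nt5e was called within each set, lower in A and higher in B.

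De novo synthesis, which builds UMP without uptake, had 0 of 3 genes past the DESeq2 test in any comparison (0, 1 and 0 at an unadjusted p under 0.05 at 18 against 3 months, 12 against 3 months and 18 against 12 months, and 0 by edgeR). Cad, the enzyme that starts the path, had means of 99.5 ± 28.5, 89.1 ± 13.9 and 85.8 ± 31.4 normalised counts in young, middle-aged and aged livers (SD, n = 4 each). Dhodh, the mitochondrial dehydrogenase, had 98.9 ± 8.65, 94.7 ± 2.81 and 93.3 ± 9.42, and Umps, which completes UMP, had 301 ± 26.0, 363 ± 42.9 and 354 ± 31.5 (SD, n = 4 each). Of salvage enzymes 0 passed by DESeq2 among 9, 8 and 8 tested in the same order (2, 1 and 1 at an unadjusted p under 0.05, and 0 by edgeR). Uck2, the second uridine-cytidine kinase, had 134 ± 33.1, 123 ± 19.9 and 116 ± 11.1 normalised counts, and Cda, which deaminates cytidine to uridine, had 52.3 ± 5.89, 43.7 ± 8.72 and 72.0 ± 24.4 (SD, n = 4 each). Abat, the transaminase that takes beta-alanine further, had 3439 ± 673, 4049.7 ± 136 and 3736 ± 462 (SD, n = 4 each), and 0 of the 3 genes at the end of breakdown passed by DESeq2 in any comparison (0 at an unadjusted p under 0.05 and 0 by edgeR). Of the other transporters 0 passed by DESeq2 among 3, 1 and 1 tested (1, 0 and 0 at an unadjusted p under 0.05, and 0 by edgeR). Nme3 was at 0 in all 12 libraries.

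**Figure D4:**
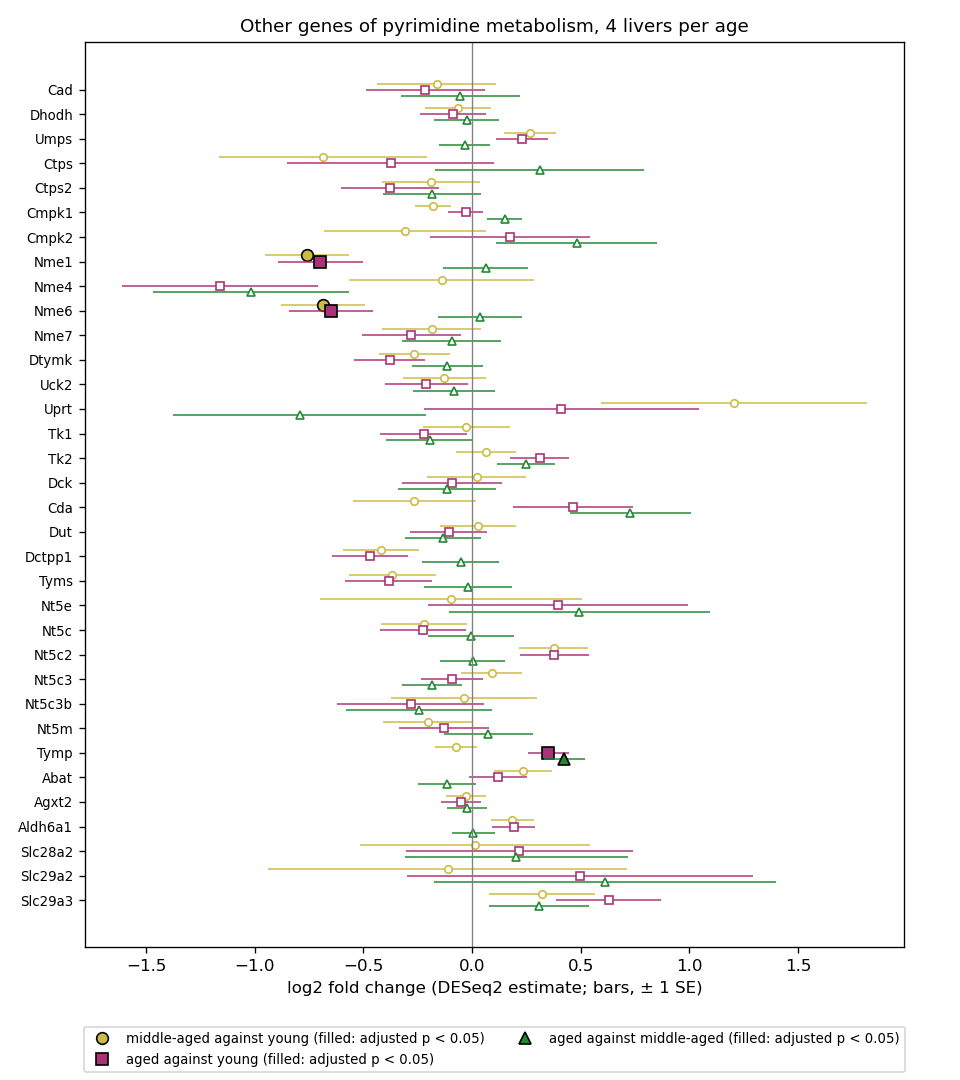
Log2 fold changes (x axis; DESeq2 estimates, bars ± 1 SE, n = 4 livers per age) of the 34 further genes of pyrimidine metabolism that were tested in aged against young livers, 1 gene per row; filled symbols passed the test at an adjusted p under 0.05, open ones did not or had no adjusted p in that comparison. Filled symbols stand at Nme1, Nme6 and Tymp only.

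Clock genes were read beside Upp2 because the hour of sampling was not given in the sources used here. Dbp encodes a clock-controlled activator, and its normalised count was 188, 220.3, 173 and 129.8 in young replicates 1 to 4. In middle-aged replicates 1 to 4 the Dbp count was 908, 657, 503 and 687, and in aged ones it was 173, 157, 18.4 and 52.7. The order of the 3 ages was that of Upp2 for Dbp means, with the middle-aged livers highest, but aged replicates 1 and 2 lay inside the young range of Dbp while their Upp2 counts (1644 and 1234) lay below the lowest young one (2189.7). Of 12 clock genes tested in aged against middle-aged livers, 4 fell (Dbp, Per3, and outside the naming rule Tef and Nr1d2) and 3 rose (Arntl, Nfil3, Cry1), where 1.14% of all genes were called, and edgeR called 5 genes of the list, where it called 0.108% of all genes. The log2 fold change there was -2.78 ± 0.56 for Dbp (DESeq2 adjusted p = 0.000355, n = 4 per age), -2.31 ± 0.36 for Per3 (DESeq2 adjusted p = 1.78e-07), 1.53 ± 0.22 for Nfil3 (DESeq2 adjusted p = 1.65e-08) and 1.56 ± 0.39 for Arntl (DESeq2 adjusted p = 0.0117). Nr1d1, a repressor of the clock, had a log2 fold change of -0.31 ± 0.24 and did not pass. In aged against young livers 1 of 14 clock genes passed, Cry1, which was higher (log2 fold change 0.91 ± 0.26, DESeq2 adjusted p = 0.0188, n = 4 per age), and Dbp did not, at -0.83 ± 0.56. The share of all genes called there was 3.58%, and edgeR called 0 of the clock genes, so the call of Cry1 was lost. At an unadjusted DESeq2 p under 0.05, 8 of the 14 clock genes differed between aged and young livers. In middle-aged against young livers Dbp, Per3, Tef and Nr1d2 were higher and Nfil3 lower. These were 5 of 13 tested (4 by edgeR), where 6.41% of all genes were called. The Upp2 estimate there was also higher, at 0.42 ± 0.19 (SE, n = 4 per age), and was called only in the fit of those 2 ages alone. Over the 12 livers the correlation with Upp2 (Pearson r of log2 normalised counts, a description) was 0.87 for Dbp and -0.81 for Nfil3, and over deviations from the age means it was 0.65 and -0.28. Ciart, outside the naming rule, had the highest r of the clock list, 0.963, and 0.861 over deviations. Its group means were 3.74 to 18.6 normalised counts, under the 50 that the likeness ranking required. For Nr1d1, and outside the naming rule Per1 and Hlf, r was 0.391, 0.322 and -0.0153. Over deviations the r of these 3 genes was 0.112, -0.156 and -0.523. The part of sampling hour in the Upp2 levels was not tested.

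Some fasting genes differed between ages, and the aged livers were unlike each other for Cyp4a14 and Pdk4. Of 7 tested in aged against young livers 3 were higher (Cyp4a14, and outside the naming rule Cyp4a10 and Fgf21) and 1 was lower (Igfbp1), where 3.58% of all genes were called (3 of the list by edgeR). In middle-aged against young livers 1 of 6 passed, Igfbp1, which was lower (1 of the list by edgeR), where 6.41% of all genes were called, and in aged against middle-aged livers 0 of 6 passed by DESeq2 (4 at an unadjusted p under 0.05, and 0 by edgeR). Cyp4a14, a fatty acid hydroxylase raised by fasting, was at 20.1, 113, 3452 and 1204 normalised counts in aged replicates 1 to 4, against 1.27 to 34.0 in young and 43.1 to 314 in middle-aged livers. Pdk4, a kinase that spares glucose in fasting, was at 51.2, 40.5, 182 and 122 normalised counts in aged replicates 1 to 4, against 14.0 to 79.4 in young and 29.1 to 55.7 in middle-aged livers. Aged replicates 3 and 4, which are the aged livers of spike-in set B, thus stood apart for both, and their Upp2 counts (856 and 1563) were the lowest and the second highest of the aged livers. Igfbp1, an insulin-repressed hepatocyte gene, had a log2 fold change of -2.14 ± 0.59 for aged against young (DESeq2 adjusted p = 0.0147, n = 4 per age) and of -3.36 ± 0.60 for middle-aged against young (DESeq2 adjusted p = 5.58e-06). Pck1, Pdk4 and Angptl4 passed in no comparison. The part of feeding state in these levels was not tested.

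Genes were ranked by the likeness of their pattern to Upp2, as Pearson's r of log2(normalised count + 1) over the 12 livers among the 8887 genes whose mean normalised count reached 50. The 5 highest were Letmd1 (0.969), Tpbgl (0.882), Narf (0.881), Klf13 (0.879) and Lpin2 (0.868), and the 5 lowest were Btg1 (-0.943), Pxmp4 (-0.918), Cry1 (-0.914), Clpx (-0.906) and Ctu1 (-0.899). The points share library size, age and spike-in set, so these values carry no test. Letmd1, which encodes a mitochondrial membrane protein, spanned only 203 to 247 normalised counts against 856 to 4072 for Upp2, and its r was 0.966 within set A, 0.969 within set B and 0.794 over deviations from the age means. Btg1, an antiproliferative gene, had an r of -0.919 over deviations from the age means and ran from 442 normalised counts in aged replicate 3, where Upp2 was lowest, to 277 in middle-aged replicate 1. For Narf and Ctu1 the r fell to 0.396 and -0.399 over deviations from the age means, so that most of their likeness lay between ages. Among the 9 genes themselves the highest r was 0.835, between Slc28a1 and Dpys (0.542 over deviations from the age means), followed by 0.728 between Slc28a1 and Dpyd (0.263). Upp2 had r of -0.063 with Slc28a1 and -0.366 with Dpys, and over deviations the sign turned, to 0.316 and 0.165. Over deviations the highest r among the 9 genes was 0.73, between Upp2 and Slc29a1 (0.168 over the 12 livers), followed by 0.661 between Upp2 and Upb1 (0.341).

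**Figure D5:**
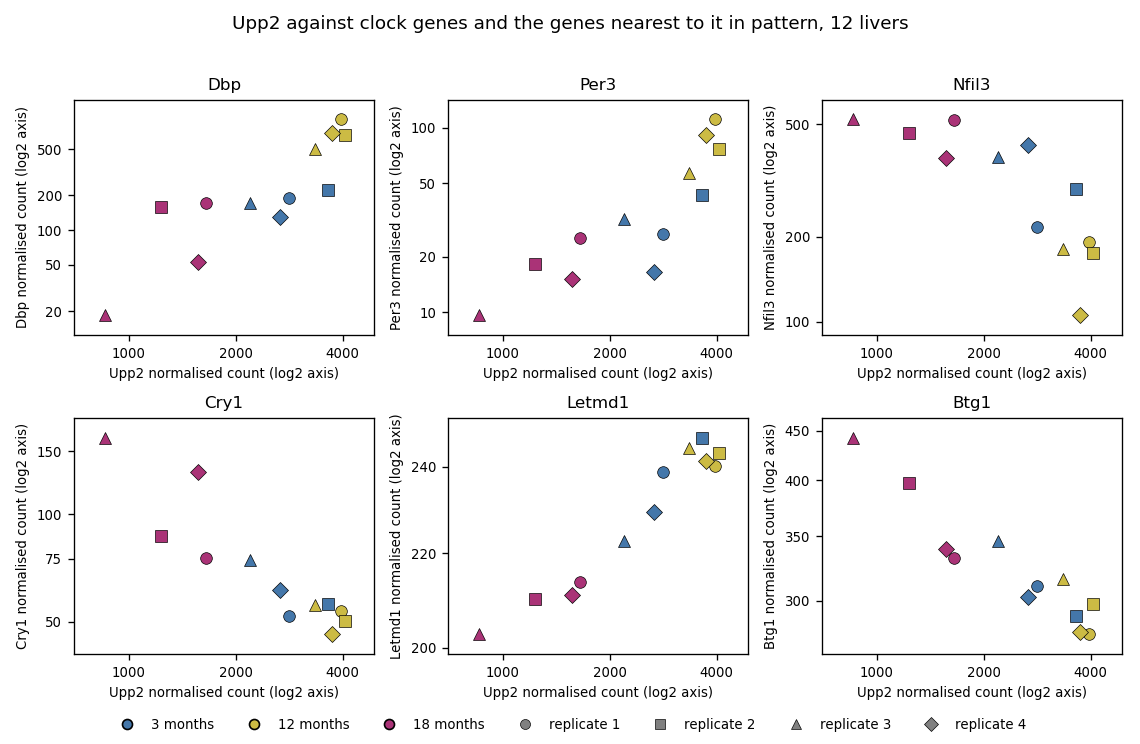
Normalised counts of 6 genes (y axes, log2 scale, not from 0) against Upp2 (x axes, log2 scale) in the 12 livers; colour is age and symbol is replicate number. The middle-aged livers stand alone at high Dbp (503 to 908), aged replicate 3 has the lowest Upp2 (856) and Dbp (18.4), and Letmd1 follows Upp2 within a narrow range (203 to 247).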

How the data were processed

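The data were RNA-seq read counts per gene from 12 livers. The authors deposited 1 table of raw, whole-number counts for 53465 genes and 92 spike-in RNAs, without normalisation. The submitters' processing notes list STAR 2.5.2b, SAMtools 1.9 and featureCounts, with mm10 (GRCm38) as build, without saying which step made this table. The labels name a directional library kit, and the strand setting of the counting was not given in the sources used here. Groups and replicate numbers came from the sample titles, and all 12 columns were matched to samples by title.

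The 28449 genes with at least 1 count, spike-ins left out, were fitted with DESeq2 1.42.0 in R 4.3.3 (all 12 livers, age as the single factor, size factors by median of ratios, Wald test, Benjamini-Hochberg adjusted p under 0.05, default independent filtering). A gene removed by that filter has no adjusted p and is not counted as tested. edgeR 4.0.16 (quasi-likelihood test, TMM factors) and the settings of the closing section were alternatives. The scripts were tested on simulated data. Symbols, positions and exon lengths (union of annotated exons) came from GENCODE M21 (GRCm38), in which 53360 identifiers were found, and promoter windows came from RefSeq. The 9 genes and all lists were chosen with earlier results of these data known. Named besides the 9 genes were all pyrimidine genes that passed the test, a fixed choice of pyrimidine, clock and fasting genes, and the 5 highest and 5 lowest correlations with Upp2. Tef, Nr1d2, Ciart, Per1, Hlf, Cyp4a10, Fgf21 and Nt5e were named after their values were seen. 1 gene of the fasting list is not reported here and was left out of its counts.

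Replicate numbers were checked as pairs and do not pair the livers (correlations of deviations from age means between -0.303 and 0.159). No 2 libraries of the same age were duplicates, since the smallest chi-square per gene between any such pair was 11.2 over 8888 genes. Libraries of different ages were not compared in this way. A count of 0 in a library allows up to 3 counts, or 2.62 to 3.82 normalised counts, which covers counting error only.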

Additional observations from a re-analysis of the deposited data

Results flagged for a closer look

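Gaps within an age were examined for 36 genes at each of 3 ages, that is in 108 groups of 4 livers, by Dixon's criterion (the gap to the nearest liver as a share of the range, against its 95% critical value). Chance flags about 1 in 20 groups, or 5.4 of 108, and 3 groups met the criterion. Nme1 was at 302 normalised counts in aged replicate 1, with the other 3 aged livers at 183 to 190.4. Tpbgl and Klf13, both among the 5 genes most like Upp2, stood apart in young replicate 2, at 99.3 normalised counts against 63.7 to 68.7 and at 557 against 345 to 365. Young replicate 2 also had the highest Upp2 count of the young livers and the highest mitochondrial and spike-in shares of all libraries. The part of these shares in the values was not tested.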

How the results depend on the processing

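Each count was recomputed under 16 alternatives per comparison, of which 8 left out 1 liver each. For the 9 genes, aged against young had 3 calls, 2 to 4 over the alternatives, with Slc28a1, Upp2 and Dpys among them except within set B, where Slc28a1 and Dpyd were called, and aged against middle-aged 1 call (Upp2 throughout). Middle-aged against young had 3 calls and 1 under edgeR, 1 under the replicate block, 1 within spike-in set A and 1 within set B, with 0 to 3 when 1 liver was left out. In the fit of the 2 ages alone middle-aged against young had 4 calls, with Upp2 added. Slc28a1 against young kept its direction in all 16 alternatives at both later ages, with log2 fold changes of 2.32 to 2.97 in aged and 2.73 to 3.39 in middle-aged livers, and Upp2 in aged livers ran from -1.22 to -0.93 against young and from -1.63 to -1.35 against middle-aged. Of the 39 further genes, aged against young had 3 calls and 0 under edgeR, 1 in the fit of the 2 ages alone and 0 within set A, with 0 to 7 when 1 liver was left out. Middle-aged against young had 2 calls and 1 under edgeR, 0 within set A and 0 within set B, with 1 to 2 when 1 liver was left out. Aged against middle-aged had 1 call (Tymp) and 0 under edgeR, 1 within set A (Nt5e, with Tymp lost) and 2 within set B (Nt5e and Tymp), with 0 to 2 when 1 liver was left out. Fewer livers enter the within-set fits, and the other causes were not tested. With the replicate block Tymp lost its call for aged against young (DESeq2 adjusted p = 0.0967), and the other calls of these further genes were unchanged. The numbers do not pair the livers (mean correlation -0.104, -0.00175 and 0.00653 at 18 against 3 months, 12 against 3 months and 18 against 12 months). Counts per kilobase rose with the length of the longest transcript, chosen as an alternative after seeing the data, and most for Upp2 (340.3 to 927). Depth limits Upp1 and Slc28a1, with 5 to 18 and 2 to 79 counts per library.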
